A study of Mus musculus with 2 samples.

Results

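Keratins are the intermediate filament proteins of epithelial cells, and keratin-associated proteins (Krtap genes) are the small proteins that embed keratin filaments in the hair shaft. The genes described here are the protein-coding genes of GENCODE M21 whose symbol is Krt plus a number or starts with Krtap. These were 110 of 21938 protein-coding genes, of which 53 were keratins and 57 were Krtap genes. Open chromatin had been mapped by DNase-seq, which sequences the ends left by the enzyme DNase I where DNA is not covered by nucleosomes, in whole embryos of the mouse strain B6NCrl at embryonic day 10.5. Each pool mixed male and female embryos, and the only group had 2 biological replicates, so there was no treatment, genotype or control to compare and no test was made. Values are therefore set beside the same measure over all protein-coding genes or over the whole genome.

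A keratin filament is built from pairs of a type I (acidic) and a type II (basic) chain, and the genes of each type lie side by side in a cluster. Simple, single-layered epithelia and the embryo's early surface ectoderm use Krt8 with Krt18, together with Krt19 and Krt7. The basal layer of stratified epithelia makes Krt5 with Krt14, the layers above it make Krt1 with Krt10, and the hair follicle uses sets of its own for its sheaths and its shaft. The differentiated layers of the epidermis and the hair follicles of the mouse form after the stage sampled here.

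The replicates held 207946 and 229568 peaks on the nuclear chromosomes, each 150 bp wide, with a median strength of 41.0 in replicate 1 and 50 in replicate 2. Peak strength is the authors' score for each peak, a bounded whole number whose definition is not given in the sources used here. Sequencing depth is unknown, and with it the weakest site either library could show. A peak of each replicate was paired with its best overlap in the other, which gave 152116 paired peaks. The epithelial markers Grhl2 (68 and 84), Epcam (69 and 73), Esrp1 (43 and 75), Cdh1 and Cldn7 had a peak within 1 kb of a transcription start site (TSS) in both replicates, and Cldn6 had one (42) in replicate 2 alone, so 5 of 6 were open. Of 10 trophoblast markers 3 were open, led by Ascl2 (95 and 99), Tfap2c (85 and 108) and Elf5 (61 and 77), and Ctsq, Gcm1 and Prl2c2 were among the 7 without a peak. Of 8 yolk sac visceral endoderm markers 3 were open, namely Lrp2 (91 and 101), Afp (74 and 89) and Cubn (30 and 42), with Amn, Apoa1 and Apoa4 among those that were not. Of 6 decidual markers 3 were open, namely Hoxa10 (101 and 124), Wnt4 (86 and 85) and Bmp2 (73 and 74), while Hoxa11, Prl6a1 and Prl8a2 were not. By the same rule 69.7% of all protein-coding genes were open. The part of such other cell types in the keratin peaks was not tested.

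Most keratin genes had no open promoter in the embryo. A gene is called open here when a peak lies within 1 kb of any of its annotated TSSs in both replicates. Of the 53 keratins, 12 were open (22.6%), and of the 57 Krtap genes 4 were open (7.02%), against 69.7% of all protein-coding genes. With each replicate counted by itself, 14 keratins and 5 Krtap genes had such a peak in replicate 1, against 70.8% of all genes. In replicate 2, 17 keratins and 5 Krtap genes had one, against 71.9% of all genes. With hotspots, the authors' wider enriched regions, 13 keratins (24.5%) and 4 Krtap genes were open, against 70.0% of all genes. The keratin and Krtap shares thus lay far below the background in each replicate and in both kinds of region.

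The 4 simple epithelial keratins stood apart from the rest of the family by count. Of these, 3 were open in both replicates and the last, Krt7, in replicate 2 alone, a share of 75% that lies near the background and, on 4 genes, cannot be told from it. Of the 41 epidermal and hair keratins 6 were open (14.6%). They divide into 3 of 18 stratified epithelial keratins (16.7%), 0 of 8 hair follicle sheath keratins and 3 of 15 hair shaft keratins (20%). Of 8 keratins outside these classes 3 were open (37.5%). Among the sheath keratins 2 had a peak in 1 replicate, and no other sheath gene had any. In a mixture of whole embryos, a site open in few cells and a site weakly open in many cannot be told apart.

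**Figure D1:**
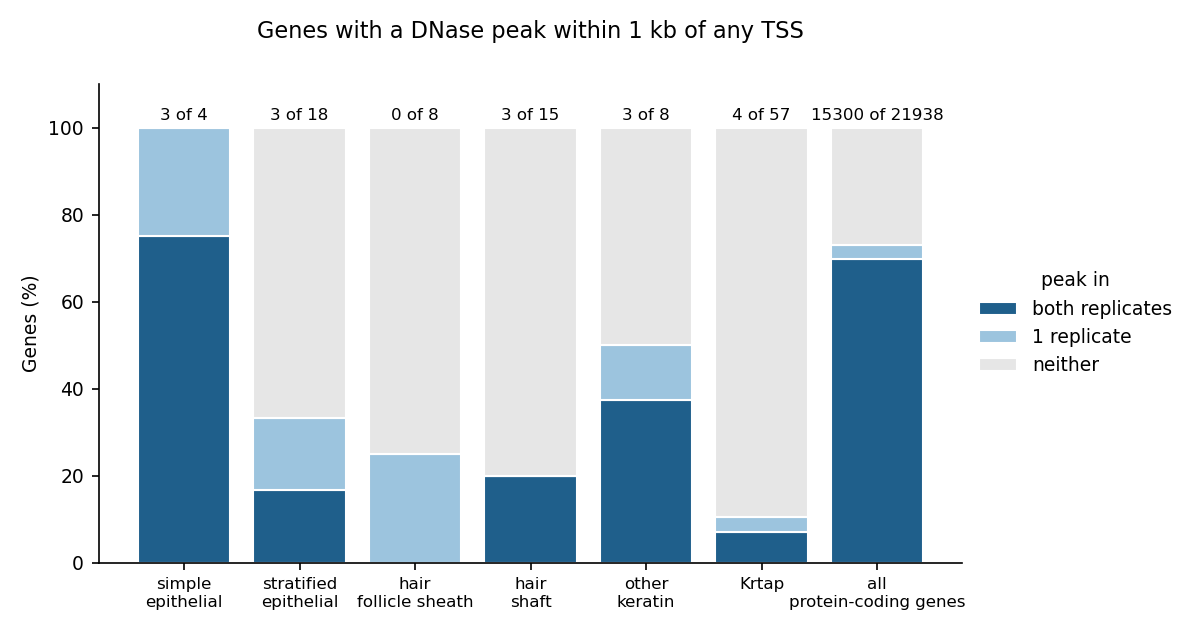
Share of genes (%) with a DNase peak within 1 kb of any TSS in both replicates, in 1 replicate or in neither, for each class of keratin and for the Krtap genes, with all protein-coding genes at the right. Numbers above the bars give the genes open in both replicates of all genes of the class, which are 3 of 4 simple epithelial keratins, 4 of 57 Krtap genes and 15300 of 21938 protein-coding genes.

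Krt8, the type II chain of simple epithelia and of the surface ectoderm, had a TSS peak of strength 46 in replicate 1 and 55 in replicate 2 (50.5 ± 6.36, mean ± SD, n = 2). Krt18, its type I partner, had 47 and 58 (52.5 ± 7.78, n = 2). Krt19, a type I keratin of simple and ductal epithelia, had 46 and 53 (49.5 ± 4.95, n = 2). The 3 genes thus had nearly the same strength in each library, with replicate 2 the higher in all of them, as it was over all paired peaks (median log2 ratio of replicate 2 to replicate 1 of 0.26). Krt7, a type II keratin of ductal and lining epithelia, had no TSS peak in replicate 1 and one of 30 in replicate 2. The replicate 2 peak lay 113 bp upstream of the 5'-most TSS, that of a noncoding transcript. The coding Krt7 transcript with the best annotation support starts further downstream, at chr15:101412402. In replicate 1 the peak nearest to the 5'-most TSS of Krt7 lay 2973 bp away.

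These promoter peaks were weak for an open gene. The median strength over the open keratins was 45.5 in replicate 1 and 54.5 in replicate 2, against 109 and 118 over all 15300 open genes. Only 5.50% to 6.59% of all open genes had a lower mean strength than Krt19, Krt8 and Krt18. The peak at Krt8 covers chr15:102004336-102004485 and that at Krt18 covers chr15:102028076-102028225 (mm10), both in an annotated 5' untranslated exon, with their centres 72 bp downstream and 30 bp upstream of the 5'-most TSS in replicate 1. The Krt19 peak (chr11:100146056-100146205) lay 10 bp upstream of the TSS of a coding transcript, 2535 bp inside the gene's most upstream annotated TSS. Of the 32-base words in the Krt8 peak 64.7% occur once in mm10, against 100% for Krt18 and Krt19, and whether this affected the mapping of reads at Krt8 was not tested.

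**Figure D2:**
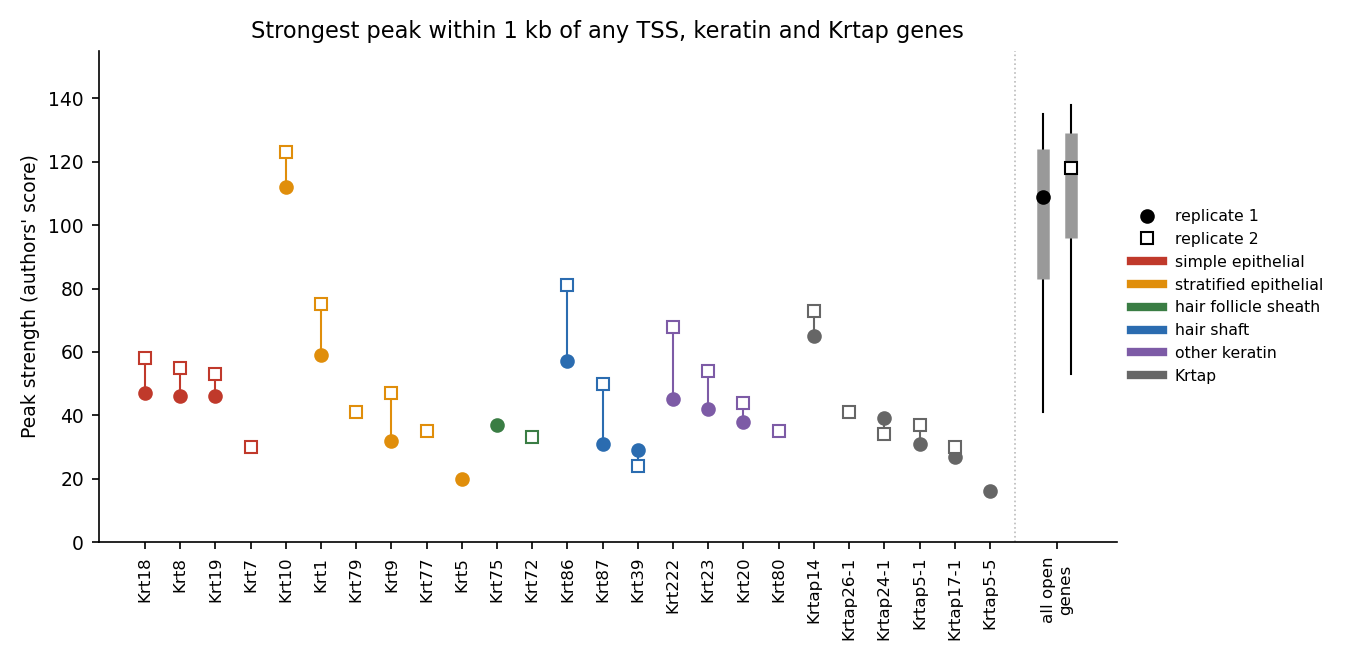
Strength (the authors' score) of the strongest peak within 1 kb of any TSS in replicate 1 (filled circles) and replicate 2 (open squares) for the 25 keratin and Krtap genes with such a peak in either replicate, coloured by class. At the right, median (symbol), quartiles (thick bar) and 5th to 95th percentiles (line) over all open genes: Krt8, Krt18 and Krt19 sit between 46 and 58, below the medians of 109 and 118, and Krt10 alone lies above a median.

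The strongest keratin peak belonged to Krt10, the type I keratin of the suprabasal epidermis, with 112 and 123 (117.5 ± 7.78, n = 2). Of all open genes 56.7% had a lower mean strength. The peak was not at the gene's 5'-most TSS. It covered chr11:99385996-99386145, 27 bp from the TSS of a short transcript annotated inside the gene and 3294 bp downstream of the 5'-most TSS, in a coding exon. No peak lay within 1 kb of the 5'-most TSS in either replicate. Krt1, the type II partner of Krt10, showed the same arrangement. Its peak (59 and 75; 67.0 ± 11.3, n = 2) at chr15:101846056-101846205 lay in a coding exon, 464 bp from an internal TSS and 4664 bp downstream of the 5'-most TSS, and again neither replicate had a peak within 1 kb of the 5'-most TSS. The sequences of both peaks, from the strand of the gene, are shown because each is a run of short repeats rich in ggc, from the exon stretch that codes for glycine-rich loops, and because neither sits at the gene's upstream start. In the Krt10 sequence the capitals mark GC boxes (GGGCGG) and ETS words (CCGGAA), read on both strands.
Krt10 exon peak: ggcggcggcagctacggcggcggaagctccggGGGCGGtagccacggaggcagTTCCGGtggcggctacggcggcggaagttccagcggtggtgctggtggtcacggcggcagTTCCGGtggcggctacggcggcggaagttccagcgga
Krt1 exon peak: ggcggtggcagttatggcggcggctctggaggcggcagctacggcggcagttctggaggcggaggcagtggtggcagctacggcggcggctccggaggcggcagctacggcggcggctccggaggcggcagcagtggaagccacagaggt
Of the 32-base words in the Krt10 peak 83.2% occur once in mm10, and of those in the Krt1 peak 96.6%. Counted at the 5'-most TSS of each gene only, 9 keratins were open (17.0%), against 65.3% of all genes, and Krt10, Krt1 and Krt19 were the ones lost. Counted at the TSSs of coding transcripts with the best annotation support (level 1), a choice made after the values were seen, 10 of 51 keratins were open (19.6%), against 76.1% of the 17390 genes with such a transcript. By this rule Krt8, Krt18 and Krt19 were open, and Krt9 was the 1 open stratified keratin.

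Krt9, a type I keratin of palm and sole epidermis, had 32 and 47 (39.5 ± 10.6, n = 2) with its centre 244 bp upstream of its TSS in replicate 1. The keratins of the basal layer gave little. Krt5 had a weak peak of 20 in replicate 1, 112 bp upstream of its TSS, and none in replicate 2. Krt14, its type I partner, had no TSS peak in either replicate, and the nearest peak to its 5'-most TSS was 1108 bp away in replicate 1 and 3823 bp away in replicate 2. Krt15, a type I keratin of basal cells and of hair follicle stem cells, had none, with the nearest peaks 10128 and 9068 bp away. Krt77 and Krt79, both type II keratins of skin, had TSS peaks of 35 and 41 in replicate 2 and none in replicate 1. The Krt79 peak lay beside an internal TSS, 9934 bp downstream of the 5'-most TSS. A Krt79 exon peak of 45 and 63 lay 1046 bp from a TSS, just outside the window. By hotspots Krt79 was open in both replicates.

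Hair keratins with an open promoter were few and mostly weak. Krt86, a type II hair shaft keratin, had 57 and 81 (69.0 ± 17.0, n = 2) at 328 bp upstream of its TSS. Krt87, a neighbouring type II shaft keratin, had 31 and 50 (40.5 ± 13.4, n = 2), and Krt39, a type I shaft keratin, had 29 and 24 (26.5 ± 3.54, n = 2). Krt39 was the weakest of the open keratins, and only 0.425% of all open genes had a lower mean. The sheath keratins Krt75, of the companion layer, and Krt72, of the inner root sheath, had a single peak each, 37 in replicate 1 for Krt75 and 33 in replicate 2 for Krt72. The Krt72 peak lay 8250 bp downstream of its 5'-most TSS, beside an internal one. Outside these classes, Krt222, a keratin-like gene at the edge of the type I cluster, had 45 and 68 (56.5 ± 16.3, n = 2), Krt23, an epithelial type I keratin, had 42 and 54 (48.0 ± 8.49, n = 2), and Krt20, of gut and bladder lining, had 38 and 44 (41.0 ± 4.24, n = 2). Krt80, a type II keratin of differentiating epithelia, had 35 in replicate 2 alone, 4592 bp downstream of its 5'-most TSS.

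All keratins with a peak in 1 replicate only were type II genes, a difference that was not tested. Of the 28 type I keratins 8 were open and none had a peak in 1 replicate only. Of the 25 type II keratins 4 were open and 7 had a peak in 1 replicate only, which were Krt5 and Krt75 in replicate 1 and Krt7, Krt72, Krt77, Krt79 and Krt80 in replicate 2. The strengths of these 7 lay between 20 and 41, so each was under the median strength of the open keratins in its replicate. Over all protein-coding genes 717 of 21938 had a peak in 1 replicate only.

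Krtap genes had the lowest share of open promoters after the sheath keratins (0 of 8). The 4 open ones were Krtap14 (65 and 73; 69.0 ± 5.66, n = 2), Krtap24-1 (39 and 34; 36.5 ± 3.54), Krtap5-1 (31 and 37; 34.0 ± 4.24) and Krtap17-1 (27 and 30; 28.5 ± 2.12). In addition Krtap5-5 had 16 in replicate 1 and Krtap26-1 had 41 in replicate 2. The Krtap14 peak lay 985 bp upstream of the TSS, close to the limit of 1 kb, and the Krtap24-1 peak 651 bp upstream. The Krtap5-1 peak lay 788 bp downstream of the 5'-most TSS, in the coding exon. The Krtap17-1 peak lay closest to its TSS, with its centre 104 bp downstream in replicate 1. With a window of 500 bp from peak edge to TSS 2 Krtap genes, Krtap14 (by weaker peaks) and Krtap17-1, were open.

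Many Krtap genes are near copies of each other, and short reads from such copies cannot be placed at 1 of them; the part of this in the low count was not tested. Of the 32-base words within 1 kb of the 5'-most TSS, a median of 88.1% occur once in mm10 for the Krtap genes and 96.5% for the keratins, against 98.5% for every 20th protein-coding gene (1097 genes). The share was under 90% for 33 of 57 Krtap genes, 13 of 53 keratins and 215 of the 1097 genes. Of the 24 Krtap genes at or over 90%, 3 were open (12.5%), and of the 33 below it 1 was open (3.03%). Among the simple epithelial keratins the median share was 93.5%.

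Distance to the nearest peak rose from the simple epithelial keratins to the epidermal and hair keratins as a group, and then to the Krtap genes. The median distance from the 5'-most TSS was 1.23 kb in replicate 1 and 0.0190 kb in replicate 2 for the 4 simple epithelial keratins, 4.79 and 5.20 kb for the 41 epidermal and hair keratins, and 9.25 and 7.26 kb for the Krtap genes, against 0.0560 and 0.0570 kb for all protein-coding genes. Single classes did not all follow their open shares. The 8 sheath keratins, with none open, had median distances of 8.13 and 7.02 kb, shorter than the Krtap genes. The 8 keratins outside the classes had 5.08 and 4.48 kb. Counting each paired peak at the gene with the nearest coding TSS, Krt8 took 7 peaks, Krt18 5, Krt19 4 and Krt7 2. The median was 4.5 for the simple epithelial keratins, 1 for each of the stratified, sheath and shaft classes and 0 for the Krtap genes, against 3 for all protein-coding genes. No peak at all was nearest to 38 of the 57 Krtap genes. Other coding genes lie inside their clusters and could take such peaks. These were 5, 13 and 14 on chromosomes 7, 10 and 16, and 18 in the type I cluster. Krtap11-1, with 9, is the last gene of its cluster and so also takes peaks that lie beyond the cluster.

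**Figure D3:**
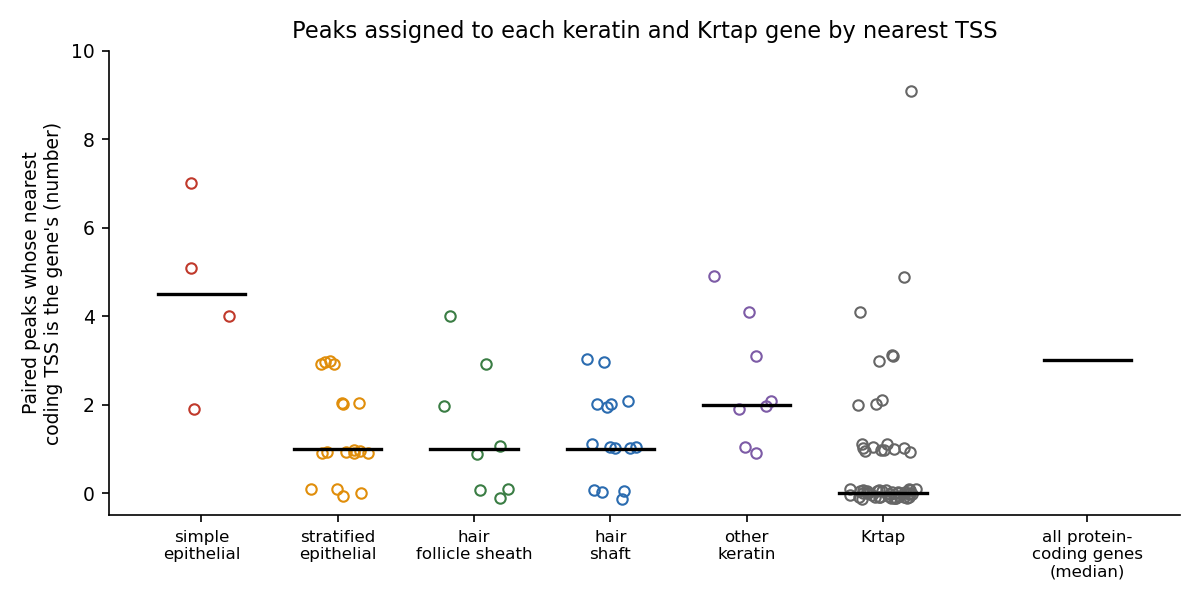
Number of paired peaks whose nearest coding TSS is that of each keratin or Krtap gene (circles, spread slightly to show overlaps; bars, class medians), with the median of 3 for all protein-coding genes at the right. Krt8, with 7, is the highest simple epithelial gene, and 38 of 57 Krtap genes lie at 0.

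Keratin promoters were poor in CpG, and many carried a TATA box. The CpG ratio (observed over expected CpG, 500 bp to each side of the 5'-most TSS) had a median of 0.302 for keratins and 0.166 for Krtap genes, against 0.552 for all protein-coding genes. It was 0.373 for the open keratins and 0.291 for the rest, against 0.691 for all open genes and 0.163 for all other genes. The highest simple epithelial value was 0.546 at Krt18, followed by 0.378 at Krt8, 0.235 at Krt19 and 0.078 at Krt7. The open peaks of Krt19, Krt10 and Krt1 lay 2535, 3294 and 4664 bp downstream of that TSS. Their ratios, also within the medians, therefore do not describe the sequence at their peaks. For Krt7 the ratio is that of a noncoding transcript's TSS, upstream of the start of its best supported coding transcript. Among genes with a ratio under 0.4, 7 of 40 keratins (17.5%) and 4 of 56 Krtap genes (7.14%) were open, against 31.3% of the 8785 such genes. The gap to the background was therefore narrower among CpG-poor genes, and remained.

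**Figure D4:**
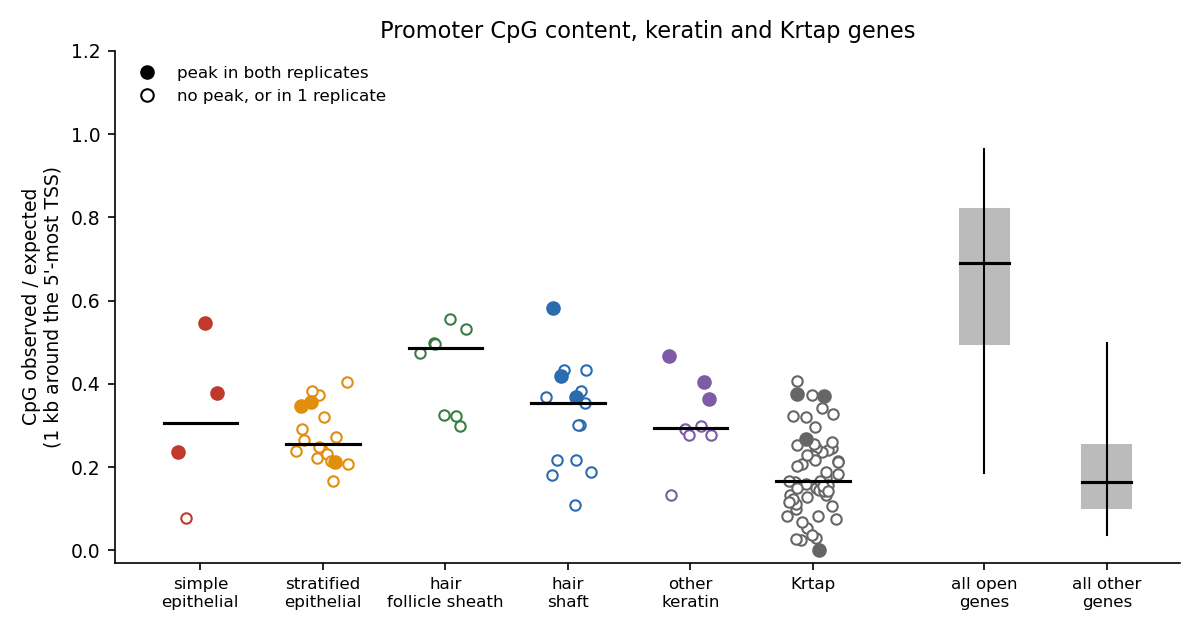
CpG ratio around the 5'-most TSS (500 bp to each side) for each keratin and Krtap gene (filled, open in both replicates; bars, class medians), with median, quartiles and 5th to 95th percentiles for all open genes and for all other genes at the right. The filled simple epithelial points are Krt18 (0.546), Krt8 (0.378) and Krt19 (0.235), under the median of 0.691 of all open genes.

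RefSeq promoters, from 250 bases before to 50 after a start, were matched for 87 of the 110 genes, on GRCm38.p6. The word TATAAA, searched on both strands, occurred in 19 of 37 keratin promoters (51.4%) and 42 of 51 Krtap promoters (82.4%), against 13.6% of all 32851 RefSeq promoters. On the strand of the gene and 20 to 40 bases before the start, it occurred in 13 keratin (35.1%) and 31 Krtap promoters (60.8%), against 1.99% of all. In that position it was found in 2 of 7 promoters of open keratins and 11 of 30 promoters of the other keratins. Only 7 of the 12 open keratins had a matched promoter. The 2 were Krt20 and Krt10, and the Krt10 peak lay 3294 bp downstream of the 5'-most TSS, not at the promoter searched. The GC box GGGCGG showed the opposite, in 5.41% of keratin and 0 of 51 Krtap promoters, against 35.7% of all. The KLF word CCACCC was in 45.9% of keratin and 7.84% of Krtap promoters, against 31.5% of all, and the AP-1 word TGANTCA in 5.41% and 19.6%, against 7.81%. The AP-2 word GCCNNNGGC was in 18.9% and 1.96%, against 16.6%. ETS words were in 2.70% and 0, against 14.9%, and CTCF words in 2.70% and 0, against 8.61%. The GRHL word AACCNGTT and the p63 word were in none of the keratin or Krtap promoters, against 2.09% and 0.712% of all.

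The last 100 bases before the RefSeq start are shown, from the strand of the gene, for the epidermal keratins Krt10 and Krt5, neither of which had a peak within 1 kb of the 5'-most TSS in both replicates, and for the Krtap genes Krtap17-1 and Krtap5-1, which did, and Krtap4-7, which did not. Capitals mark TATAAA.
Krt10 (chr11:99389365-99389464, minus strand): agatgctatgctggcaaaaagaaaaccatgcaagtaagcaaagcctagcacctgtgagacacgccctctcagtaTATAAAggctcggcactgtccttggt
Krt5 (chr15:101712906-101713005, minus strand): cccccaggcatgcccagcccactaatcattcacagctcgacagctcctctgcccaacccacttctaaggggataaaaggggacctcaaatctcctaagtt
Krtap17-1 (chr11:99993995-99994094, minus strand): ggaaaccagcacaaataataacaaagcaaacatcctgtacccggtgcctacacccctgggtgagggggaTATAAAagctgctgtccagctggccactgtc
Krtap5-1 (chr7:142297135-142297234, minus strand): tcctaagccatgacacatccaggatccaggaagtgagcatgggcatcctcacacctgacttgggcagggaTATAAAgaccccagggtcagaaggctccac
Krtap4-7 (chr11:99644090-99644189, minus strand): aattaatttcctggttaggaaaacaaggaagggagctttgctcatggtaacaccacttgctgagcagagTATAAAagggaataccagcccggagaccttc
Krt10 and the 3 Krtap genes carry TATAAA shortly before the start, both where the 5'-most TSS had a peak within 1 kb (Krtap17-1, and Krtap5-1 by its exon peak 788 bp downstream) and where it had none (Krt10, Krtap4-7). The exact word is absent from the shown bases of Krt5.

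Across the type II cluster (chr15:101347444-102032027, mm10), which holds 26 of the genes including the type I gene Krt18 at its end, there were 46 paired peaks or 67.2 per Mb, against 58.2 per Mb on chromosome 15 and 55.8 per Mb over the genome. They were unevenly placed. Between the Krt78 TSS and the end of Krt18 (chr15:101954288-102032027), a stretch of 78 kb that was picked after its peaks had been seen, 15 paired peaks gave 193 per Mb, and the rest of the cluster gave 51.1 per Mb. Median strength was 70.0 in replicate 1 and 82.0 in replicate 2 for the 15 peaks, against 42.0 and 55.0 for the rest of the cluster. Of the 5 strongest peaks of the cluster more than 1 kb from a TSS, 4 lay in this stretch.

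The strongest of them, at chr15:101984356-101984505, had 130 and 127 (128.5 ± 2.12, n = 2), above 98.1% of all paired peaks. It is intergenic, 20.1 kb downstream of the Krt8 TSS and beyond the 3' end of the gene. The next, at chr15:101973796-101973945, had 94 and 121 (107.5 ± 19.1, n = 2) and lay 19.6 kb upstream of Krt78, an epidermal type II keratin. An intronic peak of Krt8 at chr15:102003036-102003185 had 100 and 106 (103.0 ± 4.24, n = 2), 1.37 kb from the TSS, and so was stronger in both replicates than the peak at the Krt8 promoter (46 and 55). The fourth, at chr15:101977416-101977565, had 95 and 101, 23.2 kb upstream of Krt78. The fifth lay elsewhere, at chr15:101772776-101772925, with 87 and 98, 5.84 kb downstream of the Krt72 TSS. The first 3 are printed as the strongest sites of the cluster away from TSSs, from the plus strand with GC boxes (GGGCGG or its reverse) in capitals.
Intergenic beyond Krt8: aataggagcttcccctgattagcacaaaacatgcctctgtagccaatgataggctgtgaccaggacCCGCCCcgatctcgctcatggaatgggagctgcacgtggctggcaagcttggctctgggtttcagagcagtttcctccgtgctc
Intergenic between Krt78 and Krt8: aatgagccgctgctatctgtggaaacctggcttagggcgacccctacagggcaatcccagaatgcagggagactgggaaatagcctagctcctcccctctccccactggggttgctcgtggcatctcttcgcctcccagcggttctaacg
Krt8 intron: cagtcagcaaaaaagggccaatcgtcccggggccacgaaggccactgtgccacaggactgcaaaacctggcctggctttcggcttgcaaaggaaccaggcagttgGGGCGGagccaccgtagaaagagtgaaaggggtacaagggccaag
Outside the picked stretch the cluster held 51.1 paired peaks per Mb, near the 55.8 per Mb of the genome. The longest interval with no peak of either replicate was 70.7 kb (chr15:101631906-101702575). It held the TSSs of Krt6a and Krt6b, keratins of wounded and follicular epithelium. The paired peaks on either side were further apart, at chr15:101596236-101596385 and chr15:101702656-101702805 in replicate 1. Of the 32-base words within 1 kb of the 5'-most TSS, 66.6% at Krt6a and 65.7% at Krt6b occur once in mm10. The part of this in the missing peaks was not tested. Of the genes next to the cluster, Eif4b, a translation factor, had 131 and 135 and Tns2, a focal adhesion gene, had 86 and 100 beside Krt18, and at the other end Atg101 had 96 and 116, while 6030408B16Rik, the gene next to the cluster, had 28 in replicate 1 only.

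**Figure D5:**
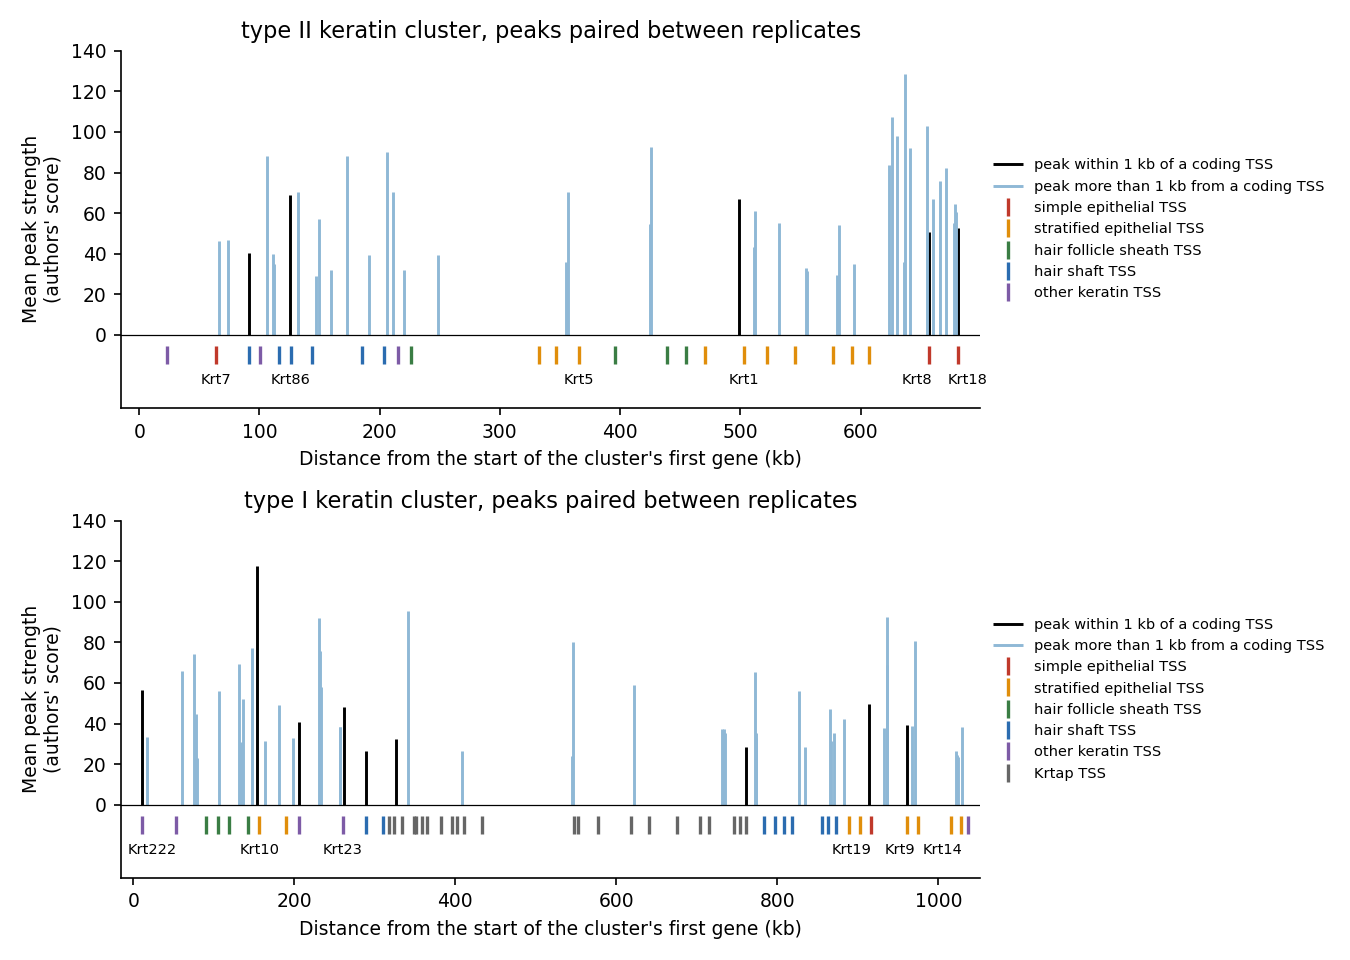
Mean strength over both replicates (the authors' score) of each paired peak against the distance (kb) from the start of the first gene of the cluster, for the type II cluster (46 peaks) and the type I cluster (54 peaks). Ticks under the axis mark the 5'-most TSS of each gene by class. In the type II cluster the tallest peaks, up to 128.5, stand at the right end beside Krt8 and Krt18, and in the type I cluster the Krtap block in the middle holds few.

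In the type I cluster (chr11:99232761-100269871), which holds 50 of the genes, 54 paired peaks gave 52.1 per Mb, against 82.5 per Mb on chromosome 11 and 55.8 per Mb over the genome. With 50 kb added to each side the density was 62.4 per Mb, so the cluster lies near the genome value and on either side of it by its limits. The block of 23 Krtap genes inside it (chr11:99550130-99993994) held 10 of them, or 22.5 per Mb, and contained a stretch of 136 kb with none, around Krtap4-6 and Krtap4-7. Among the strongest peaks of the cluster more than 1 kb from a TSS was an intergenic peak at chr11:100169096-100169245 with 80 and 105 (92.5 ± 17.7, n = 2), 20.5 kb upstream of the nearest Krt19 TSS. It exceeded the peak at the Krt19 promoter (46 and 53) in both replicates. A peak at chr11:99463276-99463425 had 80 and 104, 25.2 kb upstream of Krt20. A peak in an intron of Krt14 (chr11:100203576-100203725) had 71 and 90 (80.5 ± 13.4, n = 2), 2.38 kb downstream of a noncoding internal Krt14 TSS, the nearest one, although no TSS peak of that gene was called. A peak at chr11:99778556-99778705 had 79 and 81, 2.07 kb from the TSS of Krtap4-8, with an AP-1 word. The site upstream of Krt19 is shown, from the plus strand, as it exceeded the promoter peak of that gene; it holds none of the searched words and so has no capitals.
Upstream of Krt19: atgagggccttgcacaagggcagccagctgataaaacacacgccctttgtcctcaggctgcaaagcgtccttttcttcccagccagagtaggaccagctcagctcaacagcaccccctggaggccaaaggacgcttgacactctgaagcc
At the outer ends, Eif1, a translation initiation factor, had 134 and 141 and Smarce1, a chromatin remodelling subunit, had 90 and 100. The Eif1 promoter peak was thus stronger than that of any keratin, and among the keratins the exon peak of Krt10 (112 and 123) alone exceeded that of Smarce1. Hap1 (66 and 101) was open as well, Tns4 had 55 in replicate 2 only, and Ccr7 and Gast had no TSS peak.

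Peaks of the type I and type II clusters fell in coding exons in a larger share than peaks of the whole genome, but coding bases are also denser in these clusters. Of 100 paired peaks 16 overlapped a coding exon (16.0%), against 4.82% of all paired peaks. Coding bases make up 6.11% of the 2 clusters and 1.34% of the genome. Relative to coding bases, the share of exon peaks was therefore not higher in the clusters than over the genome. Besides Krt10 and Krt1, coding exon peaks lay in Krt88 (83 and 93) and Krt90 (88 and 92, and a second of 63 and 78). Others lay in Krt86 (64 and 77), Krt77 (54 and 68), Krt79 (45 and 63) and Krt7 (47 and 46). The rest, mostly weaker, lay in Krt222 (45 and 68), Krt87 (31 and 50), Krt28 (28 and 34) and Krt36 (32 and 39), and also in Krt20 (33 and 33), Krt75 (32 and 32) and Krtap17-1 (27 and 30). The Krt7 exon peak was present in both replicates, unlike the peak at the 5'-most TSS of that gene.

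The other Krtap clusters held few and mostly weak peaks, except that on chromosome 7. Krtap28-10 and Krtap28-13, on chromosome 1, lie outside any cluster and had no TSS peak. On chromosome 16 a stretch of 188 kb around Krtap6-3 and Krtap20-2 held no peak of either replicate. The paired peaks on either side were further apart, at chr16:89071156-89071305 and chr16:89425516-89425665 in replicate 1. The cluster there (chr16:88610705-89571183, 24 genes) held 20 paired peaks, or 20.8 per Mb, against 52.1 per Mb on the chromosome. Its strongest peaks more than 1 kb from a TSS had 47 and 73 (17.8 kb downstream of the Krtap19-1 TSS), 46 and 66 (in an intron shared by Krtap14 and Krtap15), 46 and 64 (6.18 kb upstream of Krtap19-9b), 43 and 62 (beside 1110025L11Rik) and 39 and 60 (9.51 kb upstream of Krtap7-1). On chromosome 10 (chr10:77720599-77837252, 3 genes) there were 5 paired peaks, or 42.9 per Mb (60 per Mb with 50 kb added to each side), against 60.1 per Mb on the chromosome. None had a Krtap gene as its nearest coding TSS. This span also holds 13 coding genes without a Krtap symbol, of which Tspear, Gm19668 and Gm2696 were open. The 3 paired peaks more than 1 kb from a TSS, with 37 and 41, 26 and 49, and 31 and 34, all lay in introns of Tspear. On chromosome 7 (chr7:142174535-142304594, 5 genes) 13 paired peaks gave 100 per Mb, against 61.1 per Mb on the chromosome. The 5 strongest there, with 114 and 122, 83 and 106, 96 and 90, 73 and 101, and 64 and 69, lay 4.03 to 11.0 kb upstream of the nearest coding TSS, that of Gm4559. Of these, 4 lay inside the noncoding gene Gm45889, with centres 710 to 1910 bp downstream of its TSS. In this cluster 7 of the 13 peaks (53.8%) had under 90% of unique 32-base words, against 4.34% of 1522 paired peaks taken from the whole genome. The part of repeated sequence in this density was not tested.

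Short words in the cluster peaks were mostly as frequent as in all paired peaks. Of the 100 peaks of the type I and type II clusters 21 held a CTCF word, against 12.8% of all 152116. AP-1 words were in 7, against 4.86%, GC boxes in 15, against 13.3%, KLF words in 13, against 14.0%, AP-2 words in 8, against 7.29%, ETS words in 7, against 4.97%, and TATAAA in 7, against 5.01%. A p63 word was in 1, against 0.330%, and a GRHL word in none, against 1.11%. Of the 38 peaks of the other Krtap clusters 6 held a CTCF word (15.8%) and 0 an AP-1 word. Such matches describe the letters only.

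Listed regulators of epidermis and hair, linkers of keratin filaments and other intermediate filament genes were mostly open. The comparison is with 22.6% of the keratins and 69.7% of all protein-coding genes. Of 15 regulators of surface ectoderm and epidermis 14 were open, led by Klf5 (121 and 122), Klf4 (101 and 123) and Tfap2a (111 and 108). The exception was Trp63, the p63 gene, with 34 in replicate 2 only. Of 9 hair regulators 8 were open, led by Hoxc13 (112 and 123), a regulator of hair keratin genes, Msx2 (108 and 123) and Eda (111 and 108), and Foxn1 had no peak. Of 15 desmosome and linker genes, which anchor keratin filaments, 13 were open, led by Pkp4 (133 and 133), Jup (129 and 133) and Dst (117 and 120), and Dsg3 and Evpl had none. All 15 intermediate filament genes outside the keratins were open, led by Lmnb1 (137 and 135), Nes (124 and 129) and Lmna (121 and 127). The cornified envelope genes of the outer epidermis were mostly closed, with 3 of 14 open, also against 69.7% of all protein-coding genes. These were Tgm1 (49 and 56), Ppl (38 and 39) and Lor (16 and 23), and Casp14, Cdsn and Dsc1 were among the 11 with no peak. Ppl and Evpl are in this list and in the linker list as well.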

How the data were processed

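DNase-seq peaks and hotspots of 2 replicates of whole mouse embryos, on mm10 per the labels, were used as deposited. The authors' peak files give each peak a score, called strength here, with no definition there, and the deposited hotspots carry a −log10 q value. Peaks were called on each replicate alone. For the aligner, caller and thresholds: not given in the sources used here. TSSs came from GENCODE M21, sequences from the RefSeq GRCm38.p6 genome and promoter table. Peaks within 1000 bp of a TSS (peak edge to TSS) counted, and paired peaks overlapped by at least 1 bp, each the best overlap of the other. Clusters had at least 3 genes with gaps of at most 1 Mb. Word uniqueness was counted on both strands of the mm10 chromosomes. Named were all keratin and Krtap genes with a TSS peak, the main keratins whatever their values, the 5 strongest peaks away from TSSs per cluster (1 is not reported here), and, from other lists, the 3 strongest open and up to 3 closed genes; further coding exon and flanking gene values were chosen after they were seen. Genes and lists were chosen with earlier results of these data known. The scripts were tested on simulated peaks. Python 3.11.15, pandas 2.3.3 and pysam 0.24.0 were used. Krt74 and Krt85 matched no protein-coding symbol. Alternatives are given in the closing section.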

Additional observations from a re-analysis of the deposited data

How the results depend on the processing

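Of 90 values recomputed under other settings 69 counted as unchanged, by a broad rule. It passed, for example, 17 open keratins without replicate 1, against 12. It also passed 77.1 peaks per Mb in the type I cluster without replicate 2, against 52.1. The side of the background changed for the type I cluster (62.4 peaks per Mb) and the Krtap cluster of chromosome 10 (60) with 50 kb added to each side, against 55.8 over the genome, and for the simple epithelial keratins at the 5'-most TSS (50%, against 65.3% of all genes) and at level 1 TSSs (75%, against 76.1%). It also changed for the type I cluster without replicate 2 (77.1, against 76.3 per Mb). A window of 2500 bp gave 19 open keratins (35.8%), 6 stratified keratins, 6 hair keratins and 10 Krtap genes, against 73.3% of all genes, and Krt8 and Krt18 mean strengths of 103 and 64.5 by taking in peaks beside the promoter. A window of 500 bp gave 2 Krtap genes. The 5'-most TSS gave 1 stratified keratin, as did TSSs of coding transcripts of support level 1, an alternative added after the data were seen, for which no Krtap gene has a transcript. With the stronger 50% of peaks 1 hair keratin and 1 Krtap gene were open, and paired peaks per Mb fell to 20.2 in the type I cluster, 6.76 in its Krtap block, 40.9 in the type II cluster and 6.25, 61.5 and 0 in the Krtap clusters of chromosomes 16, 7 and 10, against 32.5 over the genome. Leaving out each replicate in turn gave 14 to 17 open keratins and 4 to 5 stratified keratins, 31.5 to 38.3 peaks per Mb in the Krtap block, against 76.3 to 84.2 over the genome, and 105 in the type II cluster without either. No paired analysis was possible because there is 1 group. Depth is unknown, so a missing peak says only that none was called at the depth of that library. With 2 replicates, an SD shows little more than their difference.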
